A study of Homo sapiens with 24 samples.

Results

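BTG1, BTG2, BTG3, TOB1 and TOB2 are the members of the BTG and TOB family of antiproliferative genes described here. They were taken by gene symbol from the deposited expression table and are 5 of its 25365 rows. The rule goes by name and reads no measured value, but the family was picked for description with earlier results of these data known. A gene entered the tests of a line where 3 or more of the 12 libraries read 1 FPKM or higher, and all 5 members met this in both lines, so none was left out of a test.

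The family's proteins share an amino-terminal domain that docks onto CNOT7 and CNOT8, the deadenylase subunits of the CCR4-NOT complex, which shortens the poly(A) tails of mRNAs. BTG1, BTG2 and BTG3 are short proteins, whereas TOB1 and TOB2 carry a long carboxy-terminal part that also binds the cytoplasmic poly(A)-binding protein PABPC1. High levels of these proteins slow cell proliferation. BTG2 is a textbook p53 target and an early growth response gene, BTG1 is a known target of FOXO transcription factors, BTG3 is a p53 target that can bind E2F1, and ERK kinases are known to phosphorylate TOB1.

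The transcripts were measured by RNA sequencing in PC9 and HCC4006, established lung adenocarcinoma cell lines that carry activating EGFR mutations. Each line was present as control cells (CTRL) and as cells with a knockout of YAP1 (YAP1 KO), the transcriptional co-activator of the Hippo pathway. Cells of each genotype received either the solvent DMSO or OT, which is 100 nM of the EGFR inhibitor osimertinib together with 30 nM of the MEK inhibitor trametinib, for 24 h. This gave 8 groups of 3 libraries, 24 in all: PC9 CTRL DMSO, PC9 CTRL OT, PC9 YAP1 KO DMSO, PC9 YAP1 KO OT and the same 4 groups of HCC4006. The column names carry a single knockout code per line, so each line's knockout stands on 1 cell population, and the labels do not say if that is a single clone. Nothing in the labels says that the 3 libraries of a group came from separate cultures, so p-values measure only the spread between these libraries. The osimertinib and trametinib parts of OT cannot be told apart, since neither drug was given alone.

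YAP1 mRNA was 33.8 to 43.3 FPKM in the PC9 CTRL libraries and 10.1 to 12.4 in the PC9 YAP1 KO libraries, and 13.9 to 19.7 against 3.9 to 6.34 in HCC4006, so the labels held in every library while part of the transcript remained. EPCAM, an epithelial surface protein, was at 240.0 to 375.0 FPKM. Of the 8 epithelial markers listed, 5 of 6 tested were higher and 1 lower under OT in PC9 CTRL cells, where 32% of all genes were higher and 40.9% lower. In HCC4006 CTRL cells 3 of the 8 rose and 4 fell, where 45% and 36.6% of all genes did. The keratin KRT18 fell from 861.0 ± 29.7 to 180.0 ± 5.36 FPKM in HCC4006 CTRL cells and from 713.0 ± 3.4 to 80.2 ± 3.48 in HCC4006 YAP1 KO cells, and stood between 1270.0 and 1890.0 in PC9. The cadherin CDH1 rose under OT from 14.6 ± 0.211 to 25.5 ± 0.582 FPKM in PC9 CTRL and from 57.4 ± 2.91 to 94.8 ± 6.63 in HCC4006 CTRL cells, and the part of these marker changes in the results was not tested. The leukocyte genes PTPRC and CD3E reached at most 0.0936, and the endothelial gene PECAM1 at most 0.677. The fibroblast collagen gene COL1A1 read 1.25 to 4.59 FPKM and was higher under OT in both lines (1.35 ± 0.0955 to 1.74 ± 0.0847 in PC9 CTRL and 2.17 ± 0.133 to 4.06 ± 0.324 in HCC4006 CTRL cells), and its part in the results was not tested. NKX2-1, a lung lineage factor, was at 16.0 to 56.5 FPKM in HCC4006 and at most 0.938 in PC9, where this marker of lung adenocarcinoma was at or near 0. Summed FPKM per library ranged from 604392 to 660459 under DMSO and from 507120 to 593526 under OT, so library totals moved with the treatment. Their part in the OT results was not tested, apart from 2 rescalings of the libraries. Replicate 1 of HCC4006 CTRL OT stood apart from the other libraries, with the lowest FPKM sum and the highest estimated relative depth (1.4, where the first PC9 library is 1.0).

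The 250 bases before the annotated start of the 3 BTG genes are shown because their transcripts moved in opposite directions under OT. They were taken from RefSeq on GRCh38.p14, which is not the build of the expression table, and all 5 members matched the promoter table, with 2 windows for TOB1. Capitals mark matches to 6 motifs searched on both strands. The motif of FOXO factors was written as GTAAACA and that of E2F as TTTCCCGC. The cyclic AMP response element (CRE) was searched in full as TGACGTCA. Its end, CGTCA, lies within it and was searched as a partial CRE. The binding motif of the factor NF-Y was CCAAT, and the TATA box was searched as TATAAA.
BTG1, chr12:92145847-92146096, minus strand: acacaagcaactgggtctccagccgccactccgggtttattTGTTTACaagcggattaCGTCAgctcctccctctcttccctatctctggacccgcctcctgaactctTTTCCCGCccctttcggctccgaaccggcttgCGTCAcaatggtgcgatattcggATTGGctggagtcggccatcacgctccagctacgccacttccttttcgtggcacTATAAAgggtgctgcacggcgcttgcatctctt
BTG2, chr1:203305269-203305518, plus strand: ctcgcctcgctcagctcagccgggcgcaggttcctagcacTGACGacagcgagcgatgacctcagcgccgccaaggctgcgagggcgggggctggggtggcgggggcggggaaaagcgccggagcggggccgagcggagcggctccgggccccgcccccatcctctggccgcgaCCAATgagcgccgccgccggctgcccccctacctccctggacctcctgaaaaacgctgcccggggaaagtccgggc
BTG3, chr21:17612902-17613151, minus strand: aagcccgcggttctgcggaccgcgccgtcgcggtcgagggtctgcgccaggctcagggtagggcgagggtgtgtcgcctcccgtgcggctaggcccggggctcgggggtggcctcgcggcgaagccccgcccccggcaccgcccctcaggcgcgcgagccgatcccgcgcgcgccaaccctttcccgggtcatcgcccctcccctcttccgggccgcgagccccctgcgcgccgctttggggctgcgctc

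The window of BTG1 held a reverse match to the FOXO motif at -209 (counted from the annotated start) and an E2F motif at -142. It also held partial CRE matches at -192 and -110, a reverse NF-Y motif at -87 and a TATA box at -33. BTG2 held a reverse partial CRE match at -210 and an NF-Y motif at -76. In the window of BTG3 none of the 6 motifs was found, nor in that of TOB2. Of the TOB1 windows, 1 held an NF-Y motif at -186 and a reverse partial CRE match at -87. Of 34788 distinct promoter windows of the same length, 2.98% held the FOXO motif, 1.39% the E2F motif and 1.64% the full CRE. The partial CRE was held by 21.2%, the NF-Y motif by 32.0% and the TATA box by 10.8%. GC content was 56.4% for BTG1, 74.8% for BTG2 and 78.4% for BTG3. These matches describe the reference sequence, and no binding was measured here.

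Under OT, the transcripts of BTG1 and BTG2 rose and that of BTG3 fell in both lines and both genotypes. TOB2 rose by less in all 4 comparisons, and TOB1 rose in PC9 but not in HCC4006. Changes below are differences of group means of log2(FPKM + 1), tested with limma and called at an adjusted p under 0.05 over all genes tested. The pseudocount of 1 makes the change of a low gene such as BTG2 smaller than its fold of mean FPKM, which is given beside it. In CTRL cells all 5 members were called in PC9 (4 higher, 1 lower) and all 5 in HCC4006 (3 higher, 2 lower). Of all genes tested, 73% were called in that PC9 comparison (32% higher, 40.9% lower) and 81.6% in HCC4006 (45% higher, 36.6% lower), so being called is the usual outcome and the size of the change says more.

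**Figure D1:**
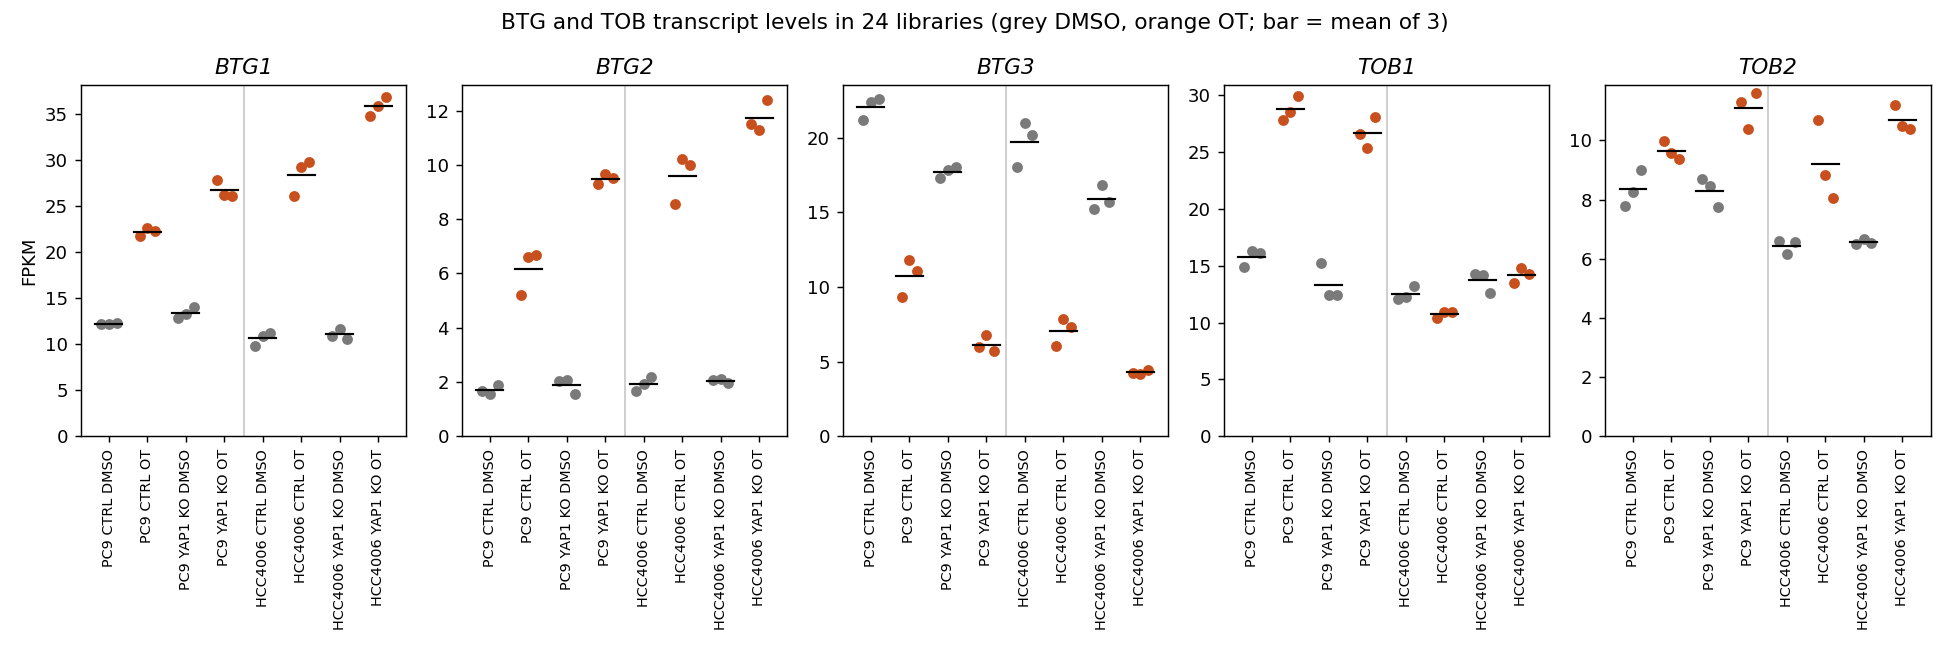
FPKM (vertical axis, linear from 0, scaled per gene) of the 5 genes in each of the 24 libraries, by group along the horizontal axis, with DMSO in grey, OT in orange and the group mean of 3 libraries as a bar. For BTG1 and BTG2 all orange points lie above all grey points of their line, for BTG3 they lie below, while TOB1 is separated by treatment in PC9 and lies between 10.4 and 14.8 FPKM in all HCC4006 libraries.

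BTG1 stood at 12.2, 12.2 and 12.3 FPKM in the PC9 CTRL DMSO libraries and at 21.7, 22.6 and 22.3 under OT. In HCC4006 CTRL cells it stood at 9.86, 10.9 and 11.2 FPKM under DMSO and at 26.1, 29.2 and 29.8 under OT. The groups did not overlap in either line. The log2 change was 0.81 in PC9 (SE 0.0372, 1.82-fold, limma adjusted p = 1.48e-09) and 1.33 in HCC4006 (SE 0.0625, 2.66-fold, limma adjusted p = 1.08e-09). Among the genes tested, 5.38% in PC9 and 6.36% in HCC4006 moved up at least as far.

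BTG2, the family's p53-responsive early response gene, was the lowest member under DMSO and had the largest OT change of the 5 in both lines. Its PC9 CTRL libraries read 1.66, 1.57 and 1.89 FPKM under DMSO and 5.2, 6.61 and 6.67 under OT. The HCC4006 CTRL libraries read 1.67, 1.94 and 2.19 FPKM under DMSO and 8.54, 10.2 and 10.0 under OT. Every OT library was above every DMSO library of its line. The log2 change was 1.40 in PC9 (SE 0.0922, 3.61-fold, limma adjusted p = 4.07e-08) and 1.85 in HCC4006 (SE 0.0783, 4.95-fold, limma adjusted p = 4.08e-10). Only 1.49% of the genes tested in PC9 and 2.67% in HCC4006 rose at least as far.

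BTG3 was the most abundant member under DMSO in both lines and the only member that fell in both. It was at 21.2, 22.4 and 22.6 FPKM in PC9 CTRL cells under DMSO and at 9.35, 11.8 and 11.1 under OT. In HCC4006 CTRL cells the values were 18.0, 21.0 and 20.2 FPKM under DMSO and 6.07, 7.84 and 7.29 under OT. The DMSO and OT libraries did not overlap. The log2 change was -0.98 in PC9 (SE 0.0733, 0.487 of the DMSO mean FPKM, limma adjusted p = 1.32e-07) and -1.36 in HCC4006 (SE 0.0815, 0.358 of the DMSO mean, limma adjusted p = 1.01e-08). In PC9 5.1% and in HCC4006 5.7% of the genes tested fell at least as far.

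TOB1 separated the lines. In PC9 CTRL cells it stood at 14.9, 16.3 and 16.1 FPKM under DMSO and at 27.8, 28.5 and 29.9 under OT, a log2 change of 0.82 (SE 0.0689, 1.82-fold, limma adjusted p = 3.65e-07). In HCC4006 CTRL cells it stood at 12.1, 12.2 and 13.2 FPKM under DMSO and at 10.4, 10.9 and 10.9 under OT. That HCC4006 difference of -0.20 (SE 0.0588, limma adjusted p = 0.00729) was small, and it became 0.01 (limma adjusted p = 0.926) once each library was rescaled to the same FPKM sum. The same rescaling moved the median change of all genes in that comparison from 0.0872 to 0.275 and the share of genes called higher from 45% to 53.9%, with 27.4% lower. With equal sums the PC9 change was 0.88. The other rescaling (median-of-ratios, described below) moves the HCC4006 difference the other way. It divides the HCC4006 CTRL DMSO libraries by 0.971 to 0.997 and the CTRL OT libraries by 1.02 to 1.03. MIR1244 rows made up 5.82% to 8.13% of the FPKM sum in these DMSO libraries and 2.97% to 3.81% in these OT libraries. Their part in the equal-sum result was not tested.

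TOB1-AS1, the antisense gene at the TOB1 locus, read 1.13 ± 0.0421 FPKM (SD, n = 3) in PC9 CTRL cells under DMSO and 2.07 ± 0.0842 under OT. In HCC4006 it read 0.281 ± 0.0296 and 0.807 ± 0.263 FPKM. It was called higher in both lines (log2 change 0.53, limma adjusted p = 0.00017, and 0.49, limma adjusted p = 0.000991), and its line difference of -0.04 was not called (limma adjusted p = 0.819). In HCC4006 its DMSO libraries reached at most 0.421 FPKM. TOB1-AS1 therefore met the filter there only through OT libraries, which favoured a rise. Both HCC4006 CTRL means lie below the pseudocount of 1, which shrinks the change there and enters the line difference. The labels do not say if the counting used strand, so the reads of TOB1 and its antisense partner may be mixed. BTG4, the germline member of the family, was at or below 1.31 FPKM in every library, and the pseudogene TOB2P1 stayed at or below 0.517.

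TOB2 had the smallest OT change of the 5 in PC9, while in HCC4006 that of TOB1 was smaller. Its PC9 CTRL libraries were at 7.77, 8.27 and 9.0 FPKM under DMSO and at 9.98, 9.56 and 9.37 under OT, a log2 change of 0.19 (SE 0.0584, limma adjusted p = 0.0117). The call was lost without PC9 CTRL DMSO replicate 1 (0.14, limma adjusted p = 0.056). In HCC4006 it was at 6.59, 6.16 and 6.56 FPKM under DMSO and at 10.7, 8.83 and 8.05 under OT, a log2 change of 0.45 (SE 0.0778, limma adjusted p = 0.000183). Without HCC4006 CTRL OT replicate 1, the deepest library and the highest of its group for TOB2, the change was 0.34 (limma adjusted p = 0.000115). Leaving that library out gave 1.39 for BTG1, 1.92 for BTG2, -1.27 for BTG3 and -0.18 for TOB1, all still called in limma.

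In YAP1 KO cells OT also raised BTG1, BTG2 and TOB2 and lowered BTG3 in both lines, whereas TOB1 rose in PC9 and was not called in HCC4006. In PC9, where 78.3% of genes were called (36.9% higher, 41.4% lower), OT took BTG1 from 12.9, 13.3 and 14.0 FPKM to 27.8, 26.2 and 26.1 (log2 change 0.95). BTG2 went from 2.05, 2.09 and 1.56 FPKM to 9.28, 9.68 and 9.51 (1.86). BTG3 went from 17.3, 17.8 and 18.0 FPKM to 5.97, 6.76 and 5.69 (-1.39). All 5 members were called in limma, with TOB1 at 0.95 (15.2, 12.4 and 12.4 FPKM to 26.6, 25.3 and 28.1) and TOB2 at 0.38 (8.68, 8.45 and 7.74 FPKM to 11.3, 10.4 and 11.6). None of these pairs of groups overlapped.

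In HCC4006 YAP1 KO cells 4 of the 5 were called (3 higher, 1 lower), where 82.8% of all genes were (46.4% higher, 36.5% lower). BTG1 went from 10.9, 11.7 and 10.6 FPKM to 34.8, 35.9 and 36.8 (log2 change 1.61), the highest level of any member in the study. BTG2 went from 2.08, 2.11 and 1.97 FPKM to 11.5, 11.3 and 12.4 (2.06). BTG3 went from 15.2, 16.8 and 15.7 FPKM to 4.25, 4.18 and 4.42 (-1.68), its lowest level. TOB2 rose by 0.63 (6.49, 6.66 and 6.54 FPKM to 11.2, 10.5 and 10.4), with no overlap. TOB1 was at 14.3, 14.2 and 12.6 FPKM under DMSO and at 13.5, 14.8 and 14.3 under OT, and the overlapping groups gave a log2 difference of 0.05 (95% interval -0.08 to 0.18, limma adjusted p = 0.443), or 0.23 (limma adjusted p = 0.00635) with equal FPKM sums.

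**Figure D2:**
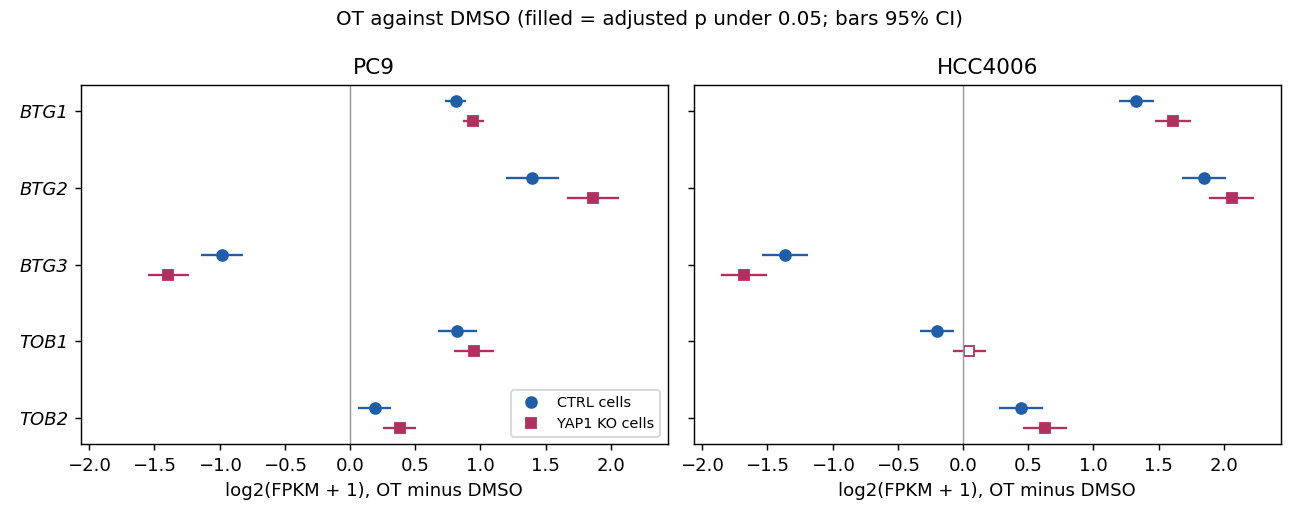
Change in log2(FPKM + 1), OT minus DMSO (horizontal axis), for each gene in PC9 (left) and HCC4006 (right), with CTRL cells as blue circles, YAP1 KO cells as red squares, bars for 95% confidence intervals and filled symbols for a limma adjusted p under 0.05. The BTG genes lie far from 0 in both lines, whereas TOB1 lies at 0.82 and 0.95 in PC9 and at -0.20 and 0.05 in HCC4006.

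The differences between YAP1 KO and CTRL cells were mostly smaller under DMSO than under OT. TOB1 in PC9 went the other way (-0.23 under DMSO, -0.11 under OT). That contrast is tested as an interaction below. Under DMSO, 3 members were called in PC9 and 1 in HCC4006, where 39.9% and 17.8% of all genes were called. In PC9 19.8% of genes were higher and 20% lower, and in HCC4006 9.2% were higher and 8.65% lower (9.85% and 6.09% with equal FPKM sums). BTG3 was lower in the knockout in both lines, by -0.30 in PC9 (limma adjusted p = 0.00629) and by -0.29 in HCC4006 (limma adjusted p = 0.0285). The HCC4006 call was lost without CTRL DMSO replicate 2 or 3 or without YAP1 KO DMSO replicate 1 or 3 (limma adjusted p of 0.0793 to 0.105). In PC9, BTG1 was higher by 0.12 (limma adjusted p = 0.0231) and TOB1 lower by -0.23 (limma adjusted p = 0.0179, overlapping libraries). Both calls rested on single libraries: without PC9 YAP1 KO DMSO replicate 3, BTG1 stood at 0.09 (limma adjusted p = 0.0988) and TOB1 at -0.19 (limma adjusted p = 0.0732), and without PC9 CTRL DMSO replicate 2 they stood at 0.12 and -0.21 (limma adjusted p of 0.0583 and 0.0614). BTG2 and TOB2 differed by at most 0.09 in either line and were not called.

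Under OT, BTG1 and BTG2 were higher and BTG3 was lower in YAP1 KO than in CTRL cells of both lines. Of the 5 members, 4 were called in PC9 (3 higher, 1 lower) and 5 in HCC4006 (4 higher, 1 lower), against 53.7% and 43.6% of all genes (28.5% and 27.2% higher, 25.2% and 16.4% lower). BTG3 had the largest difference of the 5 in both lines, -0.72 in PC9 (limma adjusted p = 6.74e-06) and -0.61 in HCC4006 (limma adjusted p = 0.000102). In PC9 2.64% and in HCC4006 4.5% of genes were lower by at least as much. BTG2 differed by 0.56 in PC9 (limma adjusted p = 0.000306) and by 0.27 in HCC4006 (limma adjusted p = 0.0153), and BTG1 by 0.25 (limma adjusted p = 0.000126) and 0.33 (limma adjusted p = 0.00127).

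The TOB genes differed less evenly by genotype under OT. TOB1 was higher in HCC4006 YAP1 KO cells (0.37, limma adjusted p = 0.000341) and not called in PC9 (-0.11, limma adjusted p = 0.215). TOB2 was higher by 0.18 in PC9 (limma adjusted p = 0.0187), a call lost without CTRL OT replicate 3 (limma adjusted p = 0.0595), YAP1 KO OT replicate 1 (limma adjusted p = 0.0546) or YAP1 KO OT replicate 3 (limma adjusted p = 0.0711). In HCC4006 it was higher by 0.21 (limma adjusted p = 0.0476), where the libraries overlapped. The HCC4006 value for TOB2 fell to 0.13 (limma adjusted p = 0.176) without CTRL OT replicate 3 and rose to 0.31 (limma adjusted p = 0.000864) without CTRL OT replicate 1. With median-of-ratios scaling, which centres each library on the median ratio to the mean library, 19.6% of all genes were called higher and 20.7% lower in HCC4006, and TOB2 stood at 0.15 (limma adjusted p = 0.146). With equal FPKM sums TOB2 stood at 0.22 and was not called either (limma adjusted p = 0.135).

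**Figure D3:**
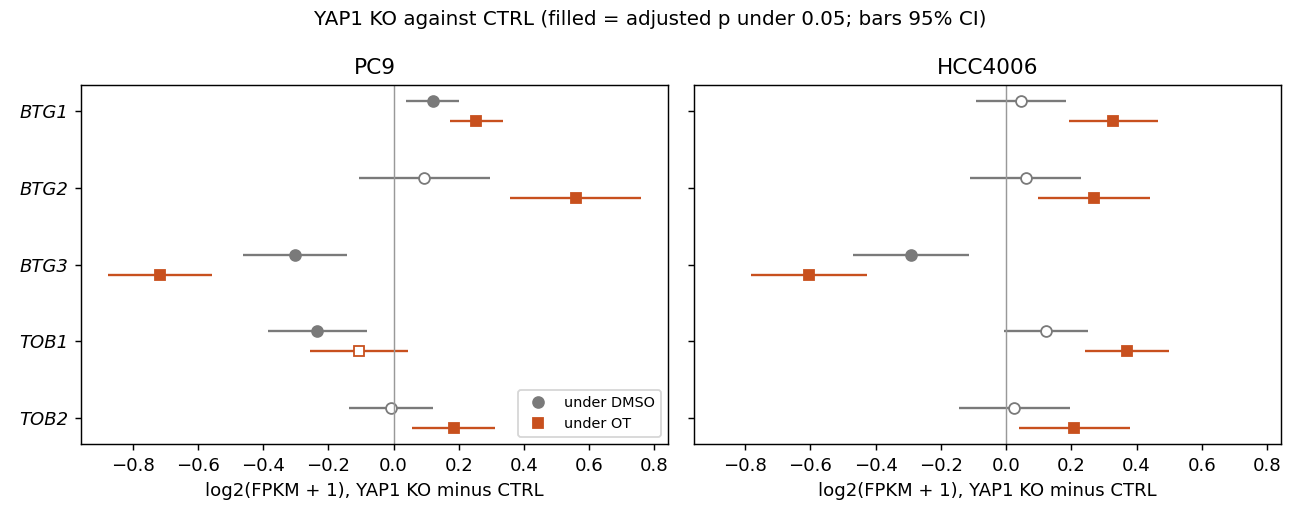
Difference in log2(FPKM + 1), YAP1 KO minus CTRL (horizontal axis), for each gene in PC9 (left) and HCC4006 (right), under DMSO (grey circles) and OT (orange squares), with bars for 95% confidence intervals and filled symbols for a limma adjusted p under 0.05. BTG3 lies at -0.30 and -0.29 under DMSO and at -0.72 and -0.61 under OT.

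Whether the OT response itself depended on genotype was tested as an interaction (how far the OT change of the knockout exceeds that of the control). In PC9, 2 of the 5 were called where 27% of all genes were (13.2% higher and 13.8% lower, or 16.7% and 10.9% with equal FPKM sums): BTG2 at 0.46 (limma adjusted p = 0.0207) and BTG3 at -0.41 (limma adjusted p = 0.0116). The BTG2 interaction was not called with a pseudocount of 0.1 (0.49, limma adjusted p = 0.0548) or 0.01 (0.49, limma adjusted p = 0.0602). BTG1, at 0.13 in PC9 (limma adjusted p = 0.0816), was called with equal FPKM sums (0.17, limma adjusted p = 0.0287) and without YAP1 KO DMSO replicate 3 (0.16, limma adjusted p = 0.0436), and TOB1 was without YAP1 KO DMSO replicate 1 (0.22, limma adjusted p = 0.0468). In HCC4006, where 18.6% of genes were called (10.5% higher and 8.18% lower, or 7.71% and 9.63% with median-of-ratios scaling), BTG1 was called at 0.28 (limma adjusted p = 0.0443) and BTG3 was not (-0.31, limma adjusted p = 0.0821). The BTG1 call was lost in 9 of the 12 fits that left out a library (limma adjusted p of 0.0514 to 0.103). It was also lost with median-of-ratios scaling (0.23, limma adjusted p = 0.098), whereas BTG3 was called with equal FPKM sums (-0.35, limma adjusted p = 0.0194). Without HCC4006 CTRL OT replicate 1, BTG1 was not called (0.23, limma adjusted p = 0.059), while BTG3 (-0.41, limma adjusted p = 0.00888) and TOB2 (0.29, limma adjusted p = 0.0167) were. Which members pass in HCC4006 therefore rested on single libraries. The interaction of TOB1 was 0.13 in PC9 and 0.25 in HCC4006, with limma adjusted p of 0.364 and 0.0563.

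Between CTRL cells of the lines, BTG2 and BTG3 were not called under DMSO and were called under OT. Between CTRL cells under DMSO, 3 members were lower in HCC4006 than in PC9, where 82.1% of all genes were called (37.7% higher, 44.4% lower): TOB2 by -0.33 (limma adjusted p = 0.000214), TOB1 by -0.32 (limma adjusted p = 0.000168) and BTG1 by -0.18 (limma adjusted p = 0.00298). BTG2 (0.12, limma adjusted p = 0.229) and BTG3 (-0.16, limma adjusted p = 0.0767) were not called, although BTG3 was with equal FPKM sums (-0.22, limma adjusted p = 0.00444). The BTG3 libraries did not overlap (21.2 to 22.6 FPKM in PC9, 18.0 to 21.0 in HCC4006). Under OT, BTG1 and BTG2 were higher in HCC4006 by 0.34 and 0.57 and BTG3 was lower by -0.54, all called in limma, where 83.5% of genes were (42.7% higher, 40.8% lower). TOB1 was lower in HCC4006 by -1.34 (limma adjusted p = 4.54e-14), 10.7 ± 0.281 against 28.7 ± 1.08 FPKM (SD, n = 3).

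All 5 members were called in the difference between the lines' OT responses in CTRL cells, where 65.2% of genes were (38.1% higher, 27.1% lower in HCC4006). The OT change in HCC4006 exceeded that in PC9 by 0.52 for BTG1 (limma adjusted p = 3.23e-06), 0.45 for BTG2 (limma adjusted p = 0.00334) and 0.26 for TOB2 (limma adjusted p = 0.0277). For BTG3 the difference was -0.39 (limma adjusted p = 0.00551), a deeper fall in HCC4006. TOB1 had the largest difference, -1.02 (limma adjusted p = 6.5e-09), and 3.87% of genes differed at least as far in that direction. The TOB2 difference was not called with median-of-ratios scaling (0.12, limma adjusted p = 0.278) or without HCC4006 CTRL OT replicate 1 (0.16, limma adjusted p = 0.0946), PC9 CTRL DMSO replicate 3 (0.21, limma adjusted p = 0.0832) or PC9 CTRL OT replicate 3 (0.24, limma adjusted p = 0.0579). With median-of-ratios scaling 28.9% of genes were called higher and 36.3% lower, and with equal sums 48.3% and 18.7%, so the split of all genes depends on the scaling, while the directions of the 5 members held under both.

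In YAP1 KO cells 4 members were called in the line difference of the OT response, against 63.7% of genes (38.4% higher and 25.3% lower, or 27.6% and 36.2% with median-of-ratios scaling). TOB1 was at -0.90 (limma adjusted p = 4.1e-08), BTG1 at 0.67 (limma adjusted p = 9.98e-08), BTG3 at -0.29 (limma adjusted p = 0.0335) and TOB2 at 0.25 (limma adjusted p = 0.0336), and BTG2 at 0.20 was not called (limma adjusted p = 0.17). With equal FPKM sums BTG2 was called (0.28, limma adjusted p = 0.0354) and BTG3 was not (-0.21, limma adjusted p = 0.0605), and with median-of-ratios scaling TOB2 was not (0.09, limma adjusted p = 0.434). The number called was 2 without PC9 YAP1 KO DMSO replicate 1, without PC9 YAP1 KO OT replicate 2 or without HCC4006 YAP1 KO OT replicate 1. In the difference between the lines of the knockout effect, TOB1 was the 1 member called, at 0.35 under DMSO (limma adjusted p = 0.00625) and at 0.48 under OT (limma adjusted p = 0.000309), where 30% (16.7% higher) and 42.5% (25.4% higher) of genes were called. Under OT, BTG2 at -0.29 was not called (limma adjusted p = 0.0671) but was at -0.36 (limma adjusted p = 0.0237) without HCC4006 CTRL OT replicate 1, at -0.33 (limma adjusted p = 0.0387) with median-of-ratios scaling and at -0.32 (limma adjusted p = 0.0291) with equal FPKM sums.

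Ordered by mean FPKM over the 8 groups, BTG1 was highest in HCC4006 YAP1 KO OT at 35.8 ± 1.01 (SD, n = 3), then HCC4006 CTRL OT at 28.3 ± 2.01 and PC9 YAP1 KO OT at 26.7 ± 0.95, whose libraries overlapped, then PC9 CTRL OT at 22.2 ± 0.439. The 4 DMSO groups followed, from 13.4 ± 0.565 in PC9 YAP1 KO to 10.7 ± 0.718 in HCC4006 CTRL. BTG2 had the same order of OT groups (11.7 ± 0.585, 9.58 ± 0.904, 9.49 ± 0.203 and 6.16 ± 0.835 FPKM), and its 4 DMSO groups overlapped with their neighbours between 1.71 and 2.05. BTG3 ran the other way, from 22.1 ± 0.742 in PC9 CTRL DMSO down to 4.28 ± 0.121 in HCC4006 YAP1 KO OT. TOB1 was set by line as much as by drug, with both PC9 OT groups on top (28.7 ± 1.08 and 26.6 ± 1.39, overlapping) and HCC4006 CTRL OT at the bottom. TOB2 spanned only 6.43 ± 0.242 to 11.1 ± 0.588 FPKM.

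FPKM are per transcript length, so the members can be set side by side within a library. In CTRL cells under DMSO, BTG3 made up 36.7% ± 0.195 of the summed FPKM of the 5 genes in PC9 and 38.4% ± 1.61 in HCC4006 (SD, n = 3). Under OT its share was 13.8% ± 1.15 and 10.9% ± 0.954. The leading member was then TOB1 in PC9 CTRL cells (37.1% ± 0.92) and BTG1 in HCC4006 CTRL cells (43.6% ± 1.44). The ratio of BTG1 to BTG3 went from 0.554 to 2.08 in PC9 CTRL and from 0.755 to 4.37 in PC9 YAP1 KO cells. In HCC4006 it went from 0.542 to 4.03 and from 0.694 to 8.36. The summed level of the 5 genes went from 60.1 ± 2.1 to 77.5 ± 2.95 FPKM in PC9 CTRL and from 54.6 ± 1.3 to 80.0 ± 1.45 in PC9 YAP1 KO cells. In HCC4006 it went from 51.3 ± 2.74 to 64.9 ± 2.79 in CTRL and from 49.3 ± 2.09 to 76.7 ± 1.54 in YAP1 KO cells.

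**Figure D4:**
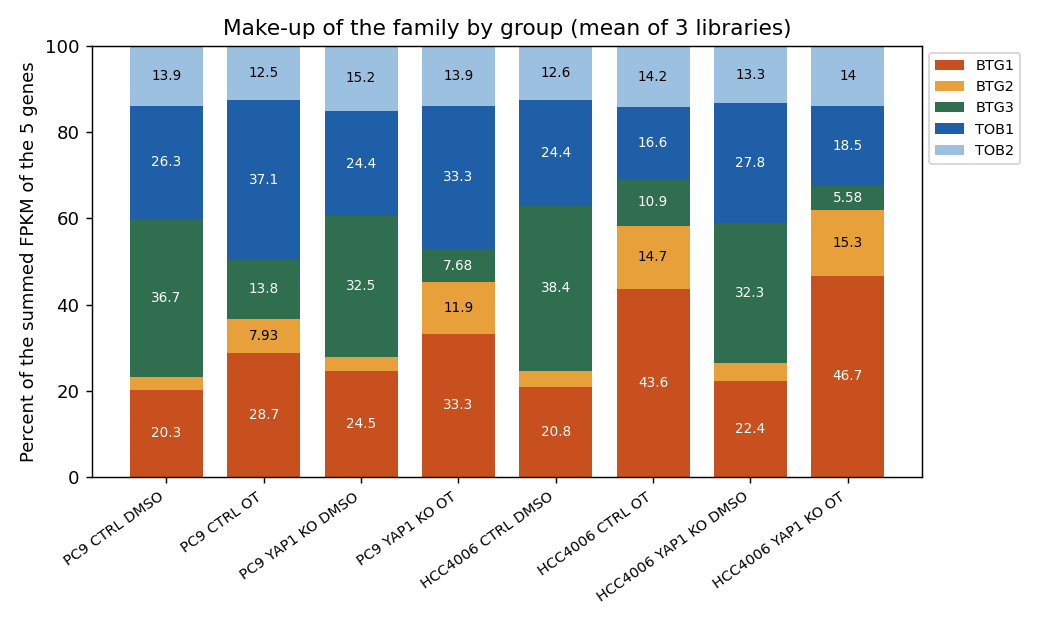
Share of each gene in the summed FPKM of the 5 genes (vertical axis, percent), as the mean of 3 libraries per group, for the 8 groups along the horizontal axis. The green BTG3 segment shrinks from 36.7% to 13.8% in PC9 CTRL and from 38.4% to 10.9% in HCC4006 CTRL cells under OT, and the dark blue TOB1 segment makes up 37.1% in PC9 CTRL OT against 16.6% in HCC4006 CTRL OT.

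Across the 24 libraries BTG1 and BTG2 went together (Pearson r = 0.977) and both ran against BTG3 (r = -0.947 and -0.958). TOB1 followed BTG1 within the 12 PC9 libraries (r = 0.901) and not within the 12 of HCC4006 (r = -0.0823). These are descriptions without a test, since the libraries share line and treatment. By the same measure the genes most like BTG2 were PNRC1 (r = 0.994), KLHL24 (0.991) and PIK3IP1 (0.989), an inhibitor of PI3K. Those most like BTG1 were RTP4 (0.99), GABRP (0.99) and FAM21C (0.989), those most like BTG3 were ITGB1BP1 (0.98), SBDSP1 (0.972) and YRDC (0.97), and those most like TOB2 were NR6A1 (0.974), KDM3B (0.972) and CHD6 (0.972). Some of these were near the floor without OT. GABRP averaged 0.0509 to 0.342 FPKM in the DMSO groups and 3.04 to 9.41 under OT. In the HCC4006 DMSO groups RTP4 averaged 0.372 and 0.446 FPKM and NR6A1 0.324 and 0.432. To meet the filter, GABRP in both lines and RTP4 and NR6A1 in HCC4006 needed OT libraries. This favoured a likeness to members that rose under OT. TOB1 was most like ITPRIPL2 (0.956), the keratin KRT19 (0.951) and TSC22D4 (0.947). KRT19 averaged 1150.0 FPKM in PC9 CTRL DMSO and 2100.0 under OT, and 893.0 and 709.0 in HCC4006.

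The partners through which these proteins act were given as lists chosen with earlier results known. Of the 17 genes of the deadenylation machinery, all tested in both lines, 4 were called higher and 8 lower under OT in PC9 CTRL cells. Of all genes there, 32% were higher and 40.9% lower, and the median was -0.07 for the list against -0.04 for all genes. In HCC4006 CTRL cells 10 were higher and 6 lower (median 0.21, against 0.09), where 45% and 36.6% of all genes were. The direct docking partners split: CNOT7 fell from 52.1 ± 0.383 to 39.6 ± 1.18 FPKM in PC9 and from 38.4 ± 1.11 to 26.7 ± 1.34 in HCC4006 (limma adjusted p = 2.06e-06 and 2.07e-06), while CNOT8 rose from 38.4 ± 1.41 to 45.0 ± 1.89 and from 43.7 ± 3.35 to 51.8 ± 3.22 (limma adjusted p = 0.000361 and 0.00225). In HCC4006 YAP1 KO cells CNOT8 reached 70.6 ± 1.02 FPKM, with a called interaction of 0.41 (limma adjusted p = 0.00495). CNOT8 was the only 1 of the 17 list genes called in that interaction, where 18.6% of all genes were (10.5% higher, 8.18% lower). RQCD1, the subunit now named CNOT9, had a log2 change of -0.87 in PC9 and -0.86 in HCC4006. In CTRL cells TNKS1BP1, a CCR4-NOT associated protein, rose by 0.71 and 1.17, and PABPC1 by 0.15 and 0.45, all called in limma. In PC9 YAP1 KO cells PABPC1 stood at 454.0 ± 3.64 FPKM under DMSO and 453.0 ± 13.2 under OT. In HCC4006 YAP1 KO cells it stood at 204.0 ± 2.24 and 279.0 ± 0.843.

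RNA-binding proteins that recruit CCR4-NOT to mRNAs differed by line. Of the 18 listed, 4 of 14 tested were called higher and 4 lower in PC9 CTRL cells under OT (median 0.04, against -0.04 for all genes). Of all genes there, 32% were higher and 40.9% lower. In HCC4006 CTRL cells 16 of 17 tested were called higher and none lower (median 0.43, against 0.09 for all genes), where 45% and 36.6% of all genes were. The line difference itself was called higher for 11 of 14 and lower for none, where 38.1% of all genes were higher and 27.1% lower. ZFP36, which directs AU-rich mRNAs to decay, rose from 6.02 ± 0.415 to 8.99 ± 0.574 FPKM in PC9 and from 7.2 ± 0.427 to 16.0 ± 1.35 in HCC4006. Among 8 other reported partners, 5 of 7 tested were lower and 1 higher in PC9, and 4 of 7 were lower and 3 higher in HCC4006, against 40.9% and 36.6% of all genes lower and 32% and 45% higher. The arginine methyltransferase PRMT1, a binding partner of BTG1 and BTG2, fell from 135.0 ± 2.43 to 88.9 ± 1.14 FPKM in PC9 and from 93.1 ± 6.53 to 40.4 ± 0.993 in HCC4006 (limma adjusted p = 5.19e-10 and 7.24e-10).

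Genes that share a regulator with BTG1 or BTG2 were counted in the same way. Of 16 other FOXO target genes, 12 of 14 tested rose and 1 fell under OT in PC9 CTRL cells (median 0.87), where 32% of all genes rose and 40.9% fell (median -0.04). In HCC4006 14 of 15 rose and 1 fell (median 1.28), against 45% and 36.6% of all genes (median 0.09). PIK3IP1 rose by 2.78 and 3.52, the ubiquitin ligase subunit FBXO32 by 2.35 and 2.89, and the autophagy gene GABARAPL1 by 2.05 and 2.41 (log2, PC9 and HCC4006). The 21 other p53 targets were mixed, as 7 of 19 tested rose and 9 fell in PC9 (median -0.12), near the shares of all genes, while in HCC4006 11 of 20 rose and 4 fell (median 0.27). TP53INP1 rose by 1.49 and 2.97 and the apoptosis gene BBC3 by 0.88 and 2.57, whereas the nuclease gene AEN fell from 7.63 ± 0.671 to 1.42 ± 0.312 FPKM in PC9 and from 18.0 ± 0.523 to 8.72 ± 2.48 in HCC4006 (limma adjusted p = 2.88e-09 and 0.000448). In PC9 TP53INP1 reached at most 0.511 FPKM under DMSO and met the filter only through OT libraries, which favoured a rise. All these values come from the same libraries as those of the BTG and TOB genes, so a like direction is not separate evidence.

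**Figure D5:**
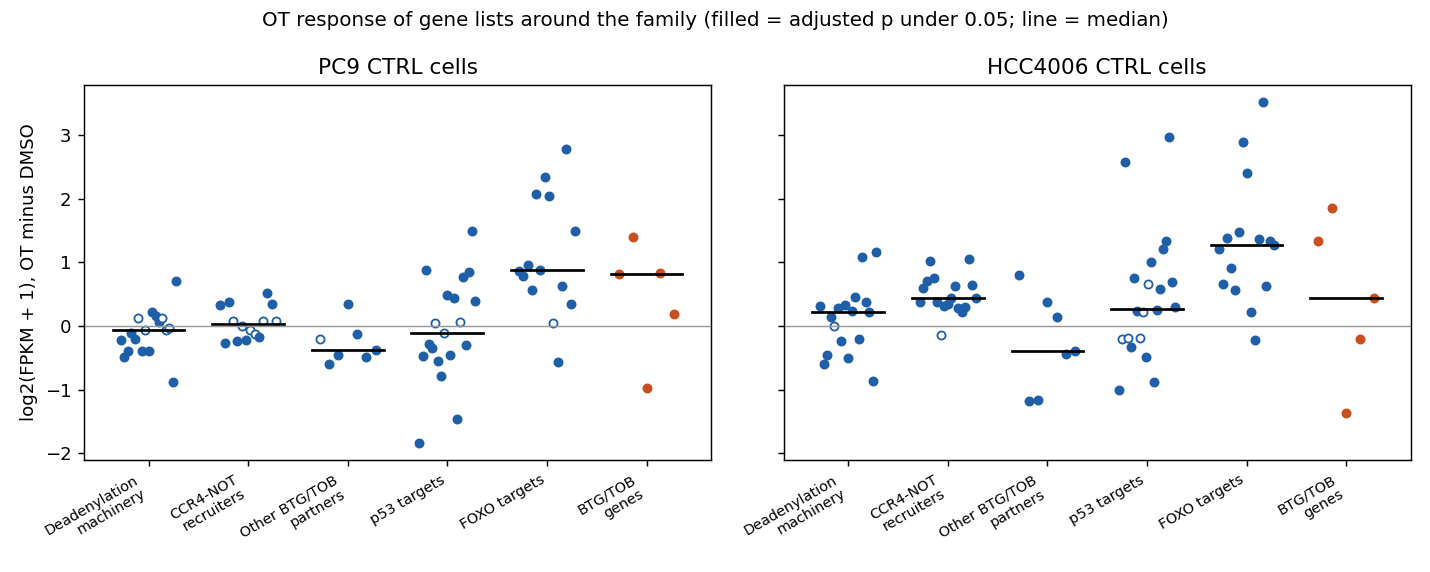
Change in log2(FPKM + 1), OT minus DMSO, in CTRL cells (vertical axis) for each gene tested of 5 lists and for the BTG and TOB genes in orange, in PC9 (left) and HCC4006 (right), with filled symbols for a limma adjusted p under 0.05 and a line at each list's median. FOXO targets lie mostly above 0 in both lines, with medians of 0.87 and 1.28, and the CCR4-NOT recruiters lie around 0.04 in PC9 and 0.43 in HCC4006.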

How the data were processed

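The 24 libraries (2 lines, 8 groups of 3) were sequenced after a stranded mRNA preparation, per the labels' protocols. Per the submitters' processing notes, the tools named are STAR 2.5.1b, Cufflinks 2.2.1 and DESeq2 1.10.1 and the build is hg19/GRCh37, with no order given. The deposited table holds the authors' FPKM values of 25365 genes, with no counts. The absolute depth is therefore unknown, and relative depth (0.94 to 1.4) was estimated from the steps of low values, so no counting interval is given and precision rests on the replicates.

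FPKM + 1 was log2-transformed. limma 3.58.1 (R 4.3.3, empirical Bayes with a trend) was fitted to the 4 groups of each line (8 residual degrees of freedom, 12685 genes in PC9 and 13113 in HCC4006 where 3 or more of 12 libraries read 1 FPKM or higher) and to all 8 groups for differences between lines (16 residual degrees of freedom, 11845 genes). P-values were two-sided and adjusted by Benjamini-Hochberg over all genes of each of the 16 comparisons (10 within a line, 6 between lines), and an adjusted p under 0.05 was called. The test was checked on simulated data. The members and gene lists were chosen with earlier results of these data known. Named were all 5 members, the 3 genes most correlated with each, and from each list up to 3 genes with the largest mean OT change in CTRL cells over both lines among those called in both, plus CNOT7, CNOT8 and PABPC1. Promoter windows came from RefSeq on GRCh38.p14. Alternatives were pseudocounts of 0.1 and 0.01, no filter or a filter at 5, 2 rescalings, no trend, a replicate block and leaving out each library.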

Additional observations from a re-analysis of the deposited data

Results flagged for a closer look

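The OT response of 3 members differed between genotypes of a line by the interaction test in limma: BTG2 in PC9 at 0.46 and BTG3 in PC9 at -0.41 (both log2 units, YAP1 KO minus CTRL), and BTG1 in HCC4006 at 0.28. Of all genes, 27% were called in PC9 and 18.6% in HCC4006. The BTG2 call was lost with pseudocounts of 0.1 and 0.01, and the BTG1 call was lost with these, with no filter, with median-of-ratios scaling, with no trend and in 9 of the 12 fits that left out a library.

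The OT response differed between the lines (HCC4006 minus PC9) for all 5 members in CTRL cells: BTG1 at 0.52, BTG2 at 0.45, BTG3 at -0.39, TOB1 at -1.02 and TOB2 at 0.26, where 65.2% of all genes were called. In YAP1 KO cells it differed for 4 members: BTG1 at 0.67, BTG3 at -0.29, TOB1 at -0.90 and TOB2 at 0.25, against 63.7% of all genes. The effect of the knockout differed between the lines for TOB1, at 0.35 under DMSO and at 0.48 under OT. TOB1 had the largest line difference of the 5 in all 4 comparisons. With 1 line of each kind, a difference between lines cannot be told apart from a difference in their handling. Where YAP1 KO groups enter, it also cannot be told apart from a difference between their knockout populations.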

How the results depend on the processing

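Over all alternatives, 1220 member values kept their side of the threshold, 58 lost a call and 21 gained one. The 1 value counted as reversed was TOB1 in HCC4006 CTRL cells under OT, at 0.0073 with equal FPKM sums. A reversal was counted only where the reported or the alternative fit called the value. Values near 0 that neither fit called may therefore have changed sign within the 1220. The OT calls of BTG1, BTG2 and BTG3 were kept in both lines and genotypes under every alternative. The number of members called in the PC9 interaction was 1 with a pseudocount of 0.1 or 0.01 in place of 2. In the HCC4006 interaction, 1 in the reported fit, it was 0 with a pseudocount of 0.1, no filter, median-of-ratios scaling or no trend, and 2 with a filter at 5, equal FPKM sums or the replicate block. In the line difference of the knockout effect under OT it was 2 with either rescaling in place of 1.

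Leaving out single libraries gave 1 to 3 members for the PC9 knockout effect under DMSO, 0 to 1 for that of HCC4006 (1442 to 1939 of all genes, against 2340; the low counts came without YAP1 KO DMSO replicate 1 or 2), and 3 to 5 for that of HCC4006 under OT (3 without YAP1 KO OT replicate 3). It gave 0 to 2 for the HCC4006 interaction, 2 to 5 for the line difference of the OT response in YAP1 KO cells and 1 to 2 for the line difference of the knockout effect under OT (2 without PC9 CTRL OT replicate 2 or 3 or HCC4006 CTRL OT replicate 1). The cause was not tested. Replicate numbers gave no regular pairing over the pairs of groups. Same-numbered libraries of a line had correlations of deviations from -0.264 to 0.161 (median 0.00305) in PC9 and from -0.15 to 0.236 (median 0.0485) in HCC4006. Differently numbered libraries had medians of -0.00248 and -0.0287. Between HCC4006 CTRL DMSO and CTRL OT, same-numbered libraries gave 0.134, 0.146 and 0.143, and differently numbered ones were all negative (-0.129 to -0.024). Between YAP1 KO DMSO and YAP1 KO OT of that line, same-numbered libraries gave -0.113, -0.0927 and -0.15. With the replicate block, the only count of members that moved by more than 1.5 times was the HCC4006 interaction, where BTG3 was called at -0.31 (limma adjusted p = 0.0374). The unknown absolute depth limits no interval given here, but BTG2 under DMSO lies near the pseudocount.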
